A study of Arabidopsis thaliana with 6 samples.

Results

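Of 33602 counted loci of Arabidopsis thaliana, 104 were near-silent in seedlings of one genotype and had reads in every library of the other. The genotypes were snl12345, a line with mutations in the SIN3-LIKE genes SNL1, SNL2, SNL3, SNL4 and SNL5, and wild type of the ecotype Col-0, with 3 biological replicates each. RNA came from the aerial parts of seedlings that were 11 days old, had grown in long days (16 h light and 8 h dark) at around 22 °C and were collected at ZT5, 5 h into the light period. The labels do not name the alleles. A locus was taken as switched on when its 3 Col-0 counts summed to 15 or less and each snl12345 library had 10 reads or more, which gave 49 loci. It was taken as switched off when its 3 snl12345 counts summed to 15 or less and each Col-0 library had 10 reads or more, which gave 55 loci. The rule leaves out 1 further locus that met the switched-on counts. Because these counts chose the loci, their difference between the genotypes is a description and carries no test.

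SIN3 proteins are scaffolds that bring histone deacetylases to chromatin, where the removal of acetyl groups from histones goes with low transcription. In plants, transposons and other repeats are also kept silent by DNA methylation and small RNAs. Loci without transcripts in seedling shoots therefore include silenced elements and genes that are used in other organs, stages or stresses.

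Library totals were 12622416, 15774357 and 13548762 reads in snl12345 replicates 1, 2 and 3, and 15194748, 14879617 and 13064598 reads in the Col-0 replicates. The mutated genes were lower in the mutant libraries as labelled. SNL2 had 2.38, 2.66 and 7.31 CPM (reads per 1000000 reads of the library) in snl12345, against 93.7, 96.1 and 104.5 CPM in Col-0. SNL3 had 2.61, 2.03 and 6.79 CPM in snl12345, against 75.8, 74.3 and 80.3 CPM in Col-0. SNL4 had 8.71, 7.48 and 14.2 CPM in snl12345, against 62.6, 60.1 and 68.0 CPM in Col-0. The decrease was smaller for the other two. SNL1 had 21.2, 19.1 and 25.5 CPM in snl12345, against 64.0, 59.9 and 65.1 CPM in Col-0, and an antisense locus, AT3G01319, overlaps it. SNL5 had 27.0, 24.98 and 25.7 CPM in snl12345, against 45.9, 49.3 and 51.9 CPM in Col-0. For all 5 genes the adjusted p of edgeR's quasi-likelihood test lay between 0.000171 and 0.000213. Replicate 3 of snl12345 had higher CPM of SNL1, SNL2, SNL3 and SNL4 than replicates 1 and 2. A set of 5 leaf genes, such as the Rubisco small subunit gene RBCS1A, summed to 24230 to 29540 CPM in snl12345, against 24930 to 28820 CPM in Col-0, so genes of green shoots were abundant in every library.

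The silent side rested on few reads. The median Col-0 count of a switched-on locus was 4, 3 and 3 reads in the 3 libraries, and the highest Col-0 count of any such locus was 8. The median snl12345 count of a switched-off locus was 3, 4 and 3 reads, and the highest was 11. For each locus the ratio of summed reads per summed library total is therefore given with an exact (Clopper-Pearson) 95% interval, which covers counting error and not the spread between plants. In bulk tissue, fewer cells of a type and less RNA per cell cannot be told apart.

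The switched-on loci had the wider contrast. Their ratio, snl12345 over Col-0, had a median of 8.57 and ran from 2.4 to 53.5, and it reached 10 in 21 loci and 4 in 43 of 49. In 25 loci the lower end of the interval was above 4. Switched-off loci were a median of 4.65-fold lower in snl12345, with a range of 2.07 to 57.4. In that direction 9 of 55 reached 10-fold, 36 reached 4-fold, and the interval stayed above 4 in 12. At least 20 reads in every expressing library were found for 13 switched-on and 12 switched-off loci, and at least 50 reads for 3 switched-on loci and none of the switched-off loci. The filter on low counts passed 47 of 49 switched-on and 48 of 55 switched-off loci. The edgeR test called 47 switched-on loci higher and 44 switched-off loci lower, beside 18.3% higher and 16.5% lower of all 19591 tested loci. Since the rule used the same contrast, these calls add nothing to it. The authors' deposited table of higher loci lists 28 switched-on loci, and that of lower loci lists 23 switched-off loci, beside 3.66% and 2.53% of an implied 18982 tested.

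**Figure D1:**
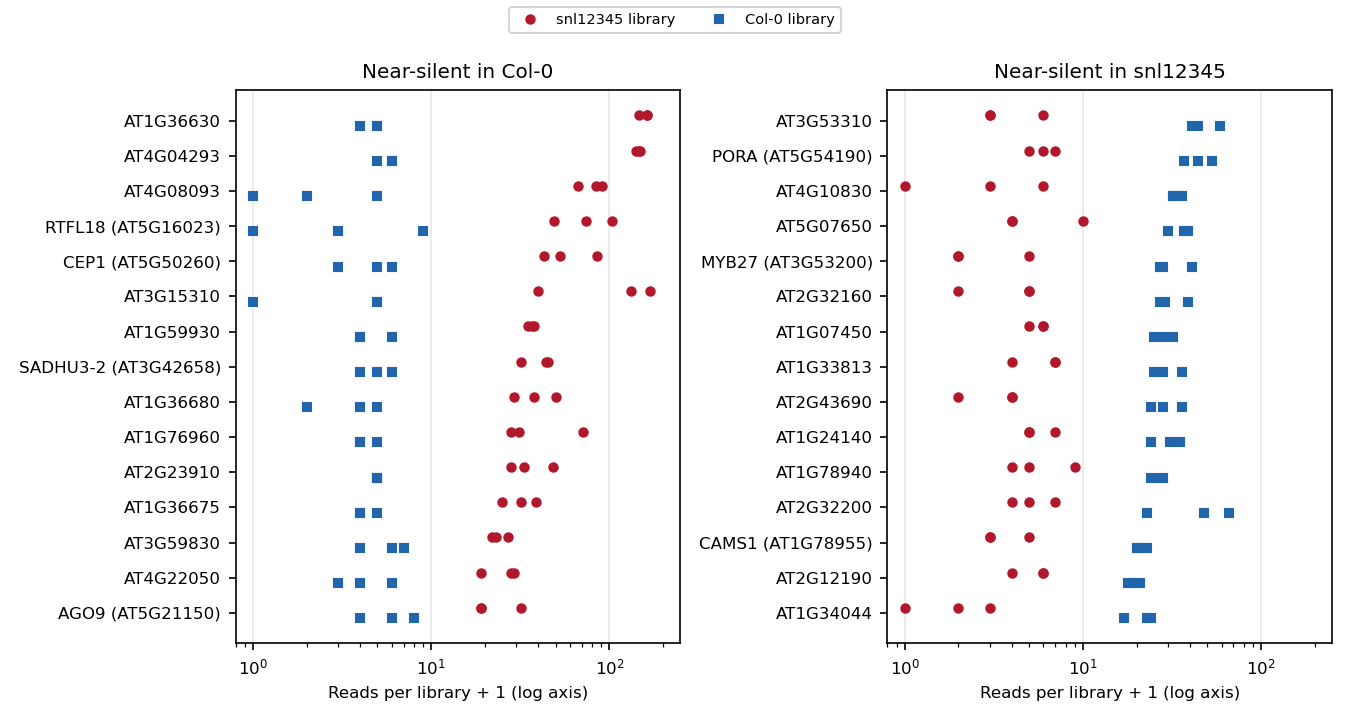
Reads per library plus 1 (log axis) of the 15 loci in each direction with the highest minimum count in the genotype that expressed them. Circles are snl12345 libraries and squares Col-0 libraries; equal counts overlie each other. On the left, AT1G36630 and AT4G04293 have 140 to 162 reads in snl12345 and 3 to 5 in Col-0; on the right, AT3G53310 has 2 to 5 reads in snl12345 and 40 to 58 in Col-0.

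The highest minimum counts among switched-on loci were those of pseudogenes. AT1G36630, a transposable element gene in the authors' deposited table and a pseudogene in RefSeq, had 145, 162 and 162 reads in snl12345, against 4, 4 and 3 reads in Col-0. Its mutant libraries agreed closely, and the ratio was 43.9 (interval 24.3 to 88.4). AT4G04293, of the same classes, had 140, 146 and 147 reads in snl12345, against 4, 5 and 5 reads in Col-0, a ratio of 31.8 (18.8 to 58.7). Per kilobase of exon it had the highest level of all switched-on loci in snl12345, 19.6 CPM per kb, where the median was 1.29 CPM per kb.

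The other switched-on pseudogenes had lower minimum counts. The transcribed pseudogene AT4G08093 had 90, 83 and 66 reads in snl12345, against 4, 1 and 0 reads in Col-0. Its ratio of 49.2 (20.8 to 153) turned on Col-0 replicate 1 and was 159 without it. AT3G15310 had 39, 131 and 168 reads in snl12345, against 4, 4 and 0 reads in Col-0 (ratio 43.5), so its mutant libraries differed among themselves by several fold. It is 98.0% identical over 1174 bp of exon to AT5G32621, and reads of the pair cannot be assigned with certainty. AT2G10980 had 17, 18 and 15 reads in snl12345, against 1, 2 and 0 reads in Col-0, and AT3G42716 had 22, 17 and 13 reads in snl12345, against 0, 0 and 1 in Col-0. The last has the highest ratio of all, 53.5, with an interval of 9.18 to 2152 that shows how little the single Col-0 read fixes it. AT4G01975 was the mildest of the class, with 20, 17 and 18 reads in snl12345, against 4, 3 and 3 reads in Col-0 (ratio 5.66).

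SADHU retroposons, short plant elements known for differing in silencing between Arabidopsis strains, gave 1 locus in each direction. SADHU3-2 (AT3G42658) had 43, 44 and 31 reads in snl12345, against 4, 5 and 3 reads in Col-0, a ratio of 10.1 (5.58 to 20.1). SADHU5-1 (AT4G01525) went the other way, with 11, 3 and 1 reads in snl12345, against 16, 26 and 12 reads in Col-0. It was 3.5-fold lower in snl12345 (1.95 to 6.68), and 9.18-fold lower without snl12345 replicate 1. It was tested and not called by edgeR, and the authors' deposited table of lower loci does not list it. Near-identical copies at AT1G18193 and AT4G00953 make its reads uncertain.

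By annotation, 9 of 49 switched-on loci (18.4%) and 9 of the 54 switched-off loci found in RefSeq (16.7%) were pseudogenes, the RefSeq class that holds transposable element genes. Of all counted loci in RefSeq the share was 14.7%, but of the 5414 with a total of 39 to 480 reads, the range of the 104 loci, it was 3.03%. So the share of pseudogenes was near that of the whole genome in both directions and above that of loci within this range of reads. AT1G36630 sets the upper end of the range, and most of the 104 loci had far fewer reads. The comparison loci were not matched to them within it. The size of the contrast differed, though this was not tested: 8 of 9 switched-on pseudogenes reached 10-fold, with a median ratio of 31.8, against 13 of 40 protein-coding loci with a median of 7.2. Among switched-off loci, 2 of 9 pseudogenes reached 10-fold lower (median 4.65), and so did 7 of 45 protein-coding loci (median 4.71). The class does not take in every element, since AT5G48050, a copia-like polyprotein gene (switched on, 13, 15 and 17 reads in snl12345, against 2, 2 and 5 in Col-0), and AT1G64260, a MuDR family transposase gene (switched off, 4, 2 and 3 reads in snl12345, against 10, 11 and 13 in Col-0), are annotated as protein-coding. Loci without introns made up 32.7% of the switched-on and 25.9% of the switched-off loci, close to the 29.3% of loci with 39 to 480 reads.

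**Figure D2:**
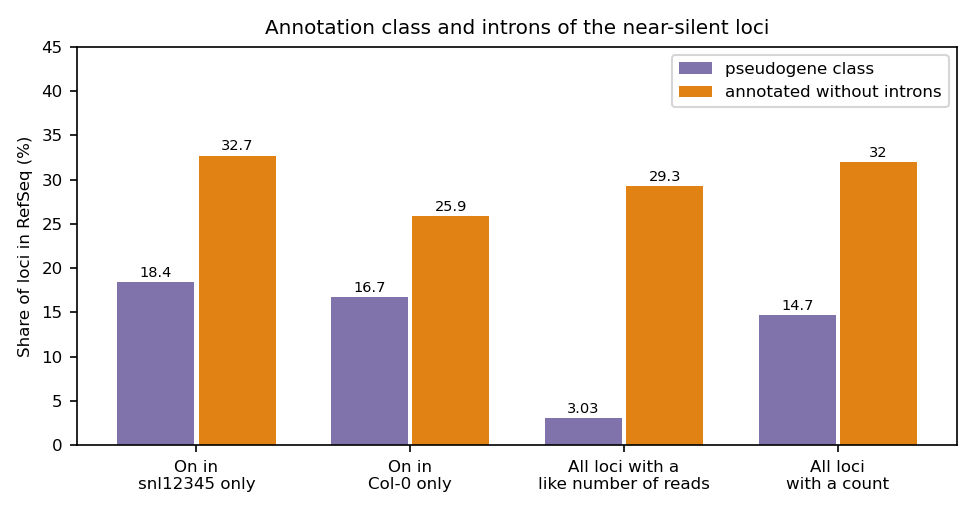
Share of loci (%) annotated by RefSeq as pseudogenes or without introns, for loci switched on, loci switched off, all loci with 39 to 480 reads in total, and all counted loci. The pseudogene share is 18.4% and 16.7% in the near-silent sets, 3.03% among loci with 39 to 480 reads (drawn as a like number of reads) and 14.7% among all counted loci.

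Some switched-on loci lay together on chromosome 1. AT1G36675, which encodes a glycine-rich protein, and the pseudogene AT1G36680 are adjacent on the same strand. AT1G36675 had 24, 38 and 31 reads in snl12345, against 3, 4 and 3 reads in Col-0 (ratio 9.56), and AT1G36680 had 28, 49 and 37 reads in snl12345, against 3, 4 and 1 reads in Col-0 (ratio 14.7). AT1G36630 stands before them on the other strand, with 7 annotated loci between. The loci in between did not share this state: AT1G36640 had 2, 1 and 2 reads in snl12345, against 7, 6 and 4 reads in Col-0, and AT1G36650, AT1G36660 and AT1G36670 had none in any library. The remaining 3 have no count here.

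The other adjacent pair encodes MADS-box proteins, a family of transcription factors, and lies beside a mutated gene. AT1G59930 had 37, 34 and 36 reads in snl12345, against 5, 3 and 3 reads in Col-0 (ratio 10, interval 5.37 to 20.6). AT1G59920 had 13, 32 and 10 reads in snl12345, against 2, 1 and 2 reads in Col-0 (ratio 11.3, interval 4.57 to 36.2). The genes are 98.8% identical over 419 bp of exon, so reads may pass from one to the other and the pair may stand for 1 source. They follow SNL5 with 2 loci between. Of these, E1 ALPHA, which encodes a subunit of pyruvate dehydrogenase, had 161 ± 10.9 CPM in snl12345 and 170 ± 8.72 CPM in Col-0 (SD, n = 3 each, adjusted p = 0.555, edgeR). AT1G59910, a formin-like gene next to AT1G59920, had 25.6 ± 2.82 CPM in snl12345 and 48.0 ± 13.0 CPM in Col-0, a log2 fold change of -0.90 ± 0.18 SE (adjusted p = 0.00684, edgeR quasi-likelihood test). E1 ALPHA overlaps AT1G59910 on the other strand, so their reads may not be kept apart. On the far side, ARR3, a response regulator of cytokinin signalling, had 2.15 ± 0.595 CPM in snl12345 and 2.49 ± 0.836 CPM in Col-0 (adjusted p = 0.596, edgeR). From SNL5 to ARR3, loci called lower, loci switched on and loci not called thus stood side by side. A switched-off locus, AT1G24140, lies near SNL3 with 9 loci between. What the mutant alleles at SNL5 and SNL3 contribute at these places was not tested.

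**Figure D3:**
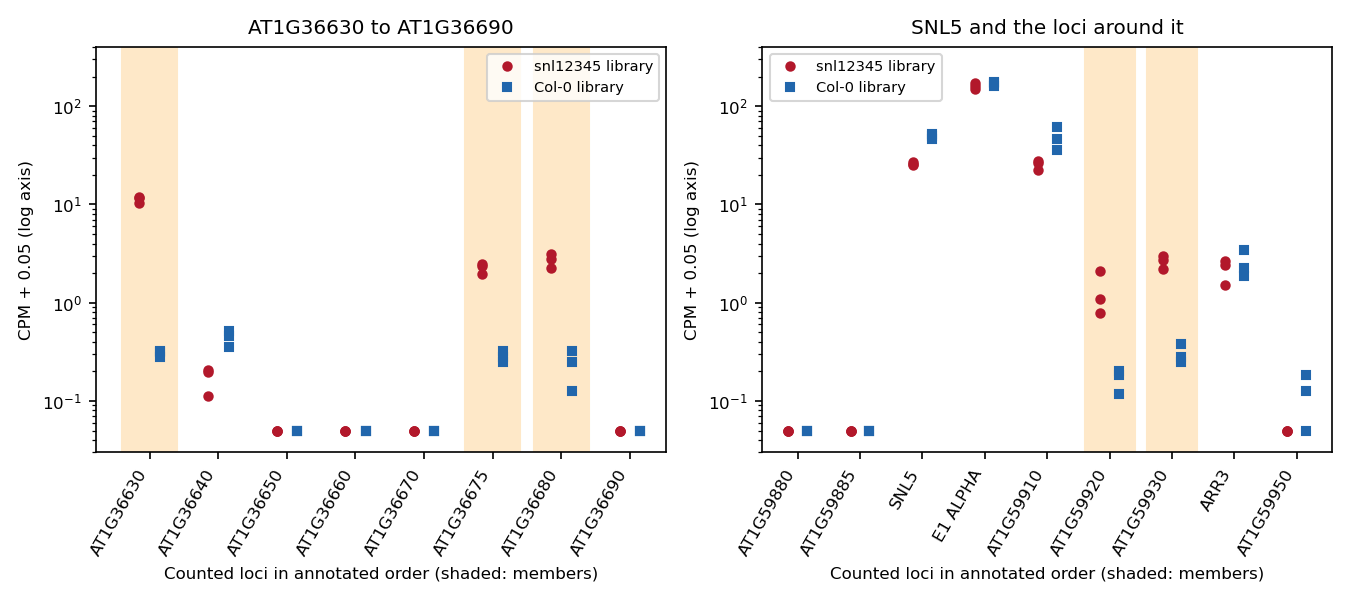
CPM plus 0.05 (log axis) of each counted locus in annotated order around AT1G36630 (left) and SNL5 (right). Circles are snl12345 libraries, squares are Col-0 libraries and shaded columns are switched-on loci. AT1G36630, AT1G36675 and AT1G36680 stand above Col-0 with loci at or near 0 between them; AT1G59920 and AT1G59930 stand above Col-0 while SNL5 and AT1G59910 stand below it.

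Of the switched-on protein-coding genes, RTFL18 had the highest minimum count. RTFL18, which encodes a small peptide of the ROTUNDIFOLIA-like family, had 73, 103 and 48 reads in snl12345, against 2, 8 and 0 reads in Col-0. Per kilobase it came second, at 10.5 CPM per kb in snl12345, and its ratio of 23.0 (12.3 to 48.7) became 75.5 without Col-0 replicate 2, which held most of the Col-0 reads. CEP1, a cysteine endopeptidase known from programmed cell death in the tapetum of anthers, had 52, 84 and 42 reads in snl12345, against 4, 2 and 5 reads in Col-0 (ratio 16.6, interval 9.08 to 33.9). AT4G22050, an aspartyl protease family gene, had 18, 27 and 28 reads in snl12345, against 5, 3 and 2 reads in Col-0 (ratio 7.51).

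UBC12, a ubiquitin-conjugating enzyme gene, had 26, 21 and 13 reads in snl12345, against 2, 1 and 0 reads in Col-0; its ratio of 20.6 was 40.0 without Col-0 replicate 1. PXMT1 and FAMT encode methyltransferases of small molecules. PXMT1 had 28, 16 and 12 reads in snl12345, against 2, 1 and 2 reads in Col-0 (ratio 11.5). FAMT had 13, 45 and 17 reads in snl12345, against 1, 8 and 0 reads in Col-0, and its ratio of 8.57 turned on single libraries, being 50.5 without Col-0 replicate 2 and 5.49 without snl12345 replicate 2. AT2G23910, a gene for a Rossmann-fold protein, was even across libraries, with 32, 47 and 27 reads in snl12345, against 4, 4 and 4 reads in Col-0 (ratio 9.09). AT1G76960, of unknown function, had 27, 70 and 30 reads in snl12345, against 4, 3 and 3 reads in Col-0 (ratio 13.1). AT3G59830, an integrin-linked kinase family gene, had the most even mutant libraries of the set, with 22, 26 and 21 reads in snl12345, against 3, 5 and 6 reads in Col-0 (ratio 5.07). GH9A3, a gene of the endoglucanase family that acts on cell walls, had 17, 22 and 16 reads in snl12345, against 4, 4 and 5 reads in Col-0 (ratio 4.35). AT2G45135, a RING/U-box gene, stood at the limit of the rule with 10, 27 and 19 reads in snl12345, against 3, 2 and 0 reads in Col-0, and its ratio of 11.5 was 18.6 without Col-0 replicate 1.

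A further group is known from roots or reproductive organs. WOX5, the homeobox gene of the root's quiescent centre, had 10, 15 and 10 reads in snl12345, against 6, 3 and 6 reads in Col-0, and its ratio of 2.4 (1.28 to 4.73) was the lowest of the set. EXPA17, an expansin gene known from lateral root emergence, had 12, 28 and 42 reads in snl12345, against 3, 3 and 2 reads in Col-0 (ratio 10.5). MYB41, a regulator of suberin formation, had 14, 20 and 11 reads in snl12345, against 4, 1 and 2 reads in Col-0, with a ratio of 6.61 that was 9.99 without Col-0 replicate 1. The 5 root markers all had reads in every library. They summed to 3189, 2806 and 2207 CPM in snl12345, against 1185, 1149 and 1148 CPM in Col-0, nearly all of it from PYK10, a beta-glucosidase gene. Without PYK10 the other 4 summed to 32.1, 22.2 and 17.4 CPM in snl12345, against 26.1, 25.2 and 27.6 CPM in Col-0, and the groups overlapped. AGO9, an Argonaute protein that acts with small RNAs in ovules, had 18, 31 and 18 reads in snl12345, against 3, 5 and 7 reads in Col-0 (ratio 4.59, interval 2.6 to 8.66). NIP7;1, a boric acid channel gene of anthers, had 23, 28 and 16 reads in snl12345, against 5, 5 and 2 reads in Col-0 (ratio 5.74). The 5 flower markers summed to 20.4, 21.4 and 33.8 CPM in snl12345, against 7.7, 8.54 and 8.73 CPM in Col-0. In snl12345 most of that came from PISTILLATA (PI), with 160, 243 and 325 reads, against 33, 38 and 48 reads in Col-0. In Col-0 most came from SEP3, with 82, 84 and 64 reads, against 83, 84 and 116 reads in snl12345. AP3 had 11, 6 and 10 reads in snl12345, against 2, 2 and 1 reads in Col-0. AG had 3, 4 and 7 reads in snl12345, against 0, 3 and 1 reads in Col-0, and AP1 had 1, 0 and 0 reads in snl12345 and none in Col-0. The 3 seed markers summed to 0.369 to 1.52 CPM in snl12345, against 0 to 0.132 CPM in Col-0, with OLEO1 at 0 in every library. The 2 pollen markers summed to 0.0738 to 0.475 CPM in snl12345, against 0.605 to 1.07 CPM in Col-0, with VGD1 at 0 in every library. What these cell types contribute to the switched-on set was not tested, and none of the markers is among the 104 loci.

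The switched-on loci not named so far had ratios between 2.65 and 12.3. They take in AT4G33720, a gene of the pathogenesis-related CAP family, with the least even mutant libraries (20, 101 and 16 reads in snl12345, against 5, 6 and 3 reads in Col-0). Others encode an auxin-responsive GH3 family protein (AT1G23160), a UBX domain protein (AT3G21660), an OPA3 family protein (AT3G58150) and a malate transporter family protein (AT5G46600). Replicates differed in a regular way over the set: 23 of the 49 loci had their highest CPM in snl12345 replicate 2, 19 in replicate 1 and 7 in replicate 3, and 29 had their lowest in replicate 3. Median CPM was 1.43, 1.65 and 1.18 in the snl12345 libraries, against 0.263, 0.202 and 0.23 in the Col-0 libraries. The coefficient of variation of CPM over the mutant libraries had a median of 21.8% and reached 95.1%.

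Switched-off loci reached lower counts than switched-on loci did. AT3G53310, which encodes a B3-type transcription factor, had 2, 2 and 5 reads in snl12345, against 58, 40 and 43 reads in Col-0. It was 15.2-fold lower in snl12345 (7.8 to 34), and 23.2-fold without snl12345 replicate 3. A second B3 gene, AT4G34400, had 2, 4 and 3 reads in snl12345, against 16, 13 and 11 reads in Col-0 (4.32-fold lower). MYB27, an R2R3-type MYB factor gene, had 1, 4 and 1 reads in snl12345, against 40, 27 and 26 reads in Col-0, and was 15.1-fold lower, or 28.2-fold without snl12345 replicate 2. PORA, the protochlorophyllide reductase that greening seedlings use as they leave darkness, had 4, 5 and 6 reads in snl12345, against 43, 36 and 52 reads in Col-0, 8.49-fold lower (4.96 to 15.6).

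Formins, which nucleate actin filaments, gave a pair on chromosome 5. AT5G07650 had 9, 3 and 3 reads in snl12345, against 38, 36 and 29 reads in Col-0, 6.68-fold lower, or 11.7-fold without snl12345 replicate 1. FH19 (AT5G07780) had 8, 4 and 2 reads in snl12345, against 16, 14 and 12 reads in Col-0, 2.92-fold lower, or 4.76-fold without snl12345 replicate 1. An antisense locus, AT5G07640, overlaps AT5G07650. Another formin-like gene, AT1G59910, is the neighbour of the switched-on MADS-box pair given above and was lower in snl12345 too, as were 16.5% of all tested loci. AT5G07770, a formin gene beside FH19, was tested and not called (log2 fold change -0.34, adjusted p = 0.0682, edgeR). These families were picked out after their values were seen: formins make up 2 of 55 switched-off loci and 13 of all counted loci, and B3 genes 2 and 39.

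Other switched-off loci came in near pairs. AT2G32160, a methyltransferase family gene, and AT2G32200, for a small cysteine-rich transmembrane protein, lie on the same strand with 4 loci between. AT2G32160 had 1, 4 and 4 reads in snl12345, against 38, 28 and 26 reads in Col-0 (9.94-fold lower). AT2G32200 had 4, 3 and 6 reads in snl12345, against 47, 22 and 65 reads in Col-0 (10.02-fold lower), and its Col-0 libraries were uneven. CAMS1, a triterpene synthase that makes camelliol C, and AT1G78940, a kinase gene, have 1 locus between them. CAMS1 had 2, 4 and 2 reads in snl12345, against 19, 22 and 19 reads in Col-0 (7.29-fold lower), and AT1G78940 had 4, 8 and 3 reads in snl12345, against 26, 23 and 27 reads in Col-0 (4.93-fold lower). A further locus of that arm, AT1G78750, an F-box gene, had 0, 0 and 1 reads in snl12345, against 23, 23 and 13 reads in Col-0, which gives the widest interval, 9.9 to 2304.

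Among the other switched-off loci, AT1G07450, for a Rossmann-fold oxidoreductase, had 5, 4 and 5 reads in snl12345, against 31, 27 and 24 reads in Col-0 (5.7-fold lower). AT2G43690, a lectin receptor kinase gene, had 1, 3 and 3 reads in snl12345, against 35, 27 and 23 reads in Col-0 (11.8-fold lower). AT1G24140, a matrixin-type metalloproteinase gene, had 4, 4 and 6 reads in snl12345, against 34, 30 and 23 reads in Col-0 (6.04-fold lower). The libraries of the genotypes were far apart in all of these genes, which the rule and the choice by minimum count favour. The ankyrin repeat gene AT3G54070 had 0, 0 and 3 reads in snl12345, against 16, 19 and 18 reads in Col-0 (17.2-fold lower, interval 5.57 to 85.9). AT2G12190, a cytochrome P450 gene, had 3, 5 and 5 reads in snl12345, against 17, 18 and 20 reads in Col-0 (4.11-fold lower).

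CAT5, an amino acid transporter gene, had 3, 7 and 3 reads in snl12345, against 31, 16 and 16 reads in Col-0 (4.71-fold lower). PTR5, a dipeptide transporter gene overlapped by the antisense locus AT5G01175, had 1, 1 and 6 reads in snl12345, against 15, 16 and 14 reads in Col-0, 5.47-fold lower, or 14.8-fold without snl12345 replicate 3. GH9B12, an endoglucanase gene, had 8, 1 and 4 reads in snl12345, against 16, 24 and 14 reads in Col-0, 4.04-fold lower, or 7.34-fold without snl12345 replicate 1. A further 6 genes with a RefSeq symbol lay between 3.4- and 4.07-fold lower, with intervals that reached down to 1.76 to 2.08. They are UGT74E2, which glucosylates an auxin precursor, HCS2, a holocarboxylase synthetase, MES8, a methyl esterase, ALMT6, a vacuolar malate channel of guard cells, ATOEP16-2, a protein of the plastid envelope, and VIM2.

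VIM2, which binds methylated DNA and helps to keep CG methylation, had 4, 2 and 6 reads in snl12345, against 15, 13 and 14 reads in Col-0 (3.4-fold lower). Its close copy AT1G66040, 99.2% identical over 1935 bp, had 2, 3 and 2 reads in snl12345, against 9, 6 and 11 reads in Col-0. Both copies were thus lower in every mutant library, but reads of the pair cannot be kept apart. Of the pseudogenes switched off, AT4G10830, a transposable element gene in the authors' deposited table, had 0, 5 and 2 reads in snl12345, against 35, 31 and 31 reads in Col-0, 13.5-fold lower, or 29.4-fold without snl12345 replicate 2, and it shares 97.5% and 97.1% of aligned sequence with AT1G30030 and AT2G14990. AT1G34044 had 0, 2 and 1 reads in snl12345, against 22, 23 and 16 reads in Col-0, 19.8-fold lower, or 37.0-fold without snl12345 replicate 2. AT1G33813 had 6, 6 and 3 reads in snl12345, against 27, 35 and 24 reads in Col-0 (5.58-fold lower). These 3 pseudogenes lie on the wide side of their class, whose median was 4.65-fold.

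The switched-off loci not named so far were between 2.07- and 11.7-fold lower in snl12345. The widest of them, AT1G64561, had 0, 3 and 1 reads in snl12345, against 14, 22 and 12 reads in Col-0, and antisense loci overlap it. They also take in AT1G17610, a disease resistance gene of the TIR-NBS class (2, 2 and 4 reads in snl12345, against 17, 13 and 20 reads in Col-0), and AT1G02630, a nucleoside transporter gene (2, 2 and 3 reads in snl12345, against 14, 21 and 11 reads in Col-0). Cysteine- and histidine-rich C1 domain genes, a family of zinc-binding proteins, gave 3 switched-off loci and 1 switched-on locus out of 141 counted. AT1G50190 had 0, 5 and 6 reads in snl12345, against 20, 19 and 11 reads in Col-0, AT4G16015 had 9, 2 and 4 reads in snl12345, against 11, 20 and 10 reads in Col-0, and AT1G20990 had 6, 7 and 2 reads in snl12345, against 11, 11 and 11 reads in Col-0. The switched-on member, AT1G61840, had 24, 23 and 12 reads in snl12345, against 3, 7 and 4 reads in Col-0. The family was noticed in the values. Of the switched-off members, AT4G16015 and AT1G20990 were tested and not called by edgeR. Over all 55 switched-off loci, the highest Col-0 CPM fell on replicate 1 in 18 loci, replicate 2 in 16 and replicate 3 in 21, a more even split than that of the switched-on loci. Median CPM was 0.238, 0.254 and 0.221 in the snl12345 libraries, against 1.05, 1.21 and 1.15 in the Col-0 libraries. The coefficient of variation over the Col-0 libraries had a median of 15.6% and reached 55.0%. Antisense loci overlapped 4 switched-on and 11 switched-off loci, or 8.16% and 20.4%, beside 24.5% of loci with 39 to 480 reads in total. Chromosome 1 carries 15 switched-on and 22 switched-off loci, 30.6% and 40.0%, and 25.1% of all counted loci.

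The limits of the rule cut through a continuum. Just inside, 7 switched-on and 10 switched-off loci had exactly 10 reads in their lowest expressing library, and just outside, 8 and 17 loci had 9. AT2G09187, just outside, had 14, 11 and 9 reads in snl12345 and none in Col-0, while WOX5, just inside, reached the limit of 15 summed Col-0 reads. On the silent side, 2 switched-on and 11 switched-off loci summed to 15 reads, and 7 and 11 loci summed to 16. AMS, a regulator of tapetum development, was among the last, with 5, 4 and 7 reads in snl12345, against 12, 11 and 11 reads in Col-0. Of all counted loci, 13230 were near-silent by the same sum in snl12345 and, again, 13230 in Col-0. At least 1 read of the other genotype was found for 3676 and 3902 of these, so the 104 loci are a small part of those with little or no expression. Without snl12345 replicate 3 the same limits took 84 switched-on loci, and without Col-0 replicate 2 they took 83 switched-off loci. Leaving out an expressing library, as here, can only add loci.

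The loci next to these were chosen by position and not by their own counts, so they can be tested. Of 98 loci adjacent to a switched-on locus in RefSeq order, 4 were switched-on loci themselves, 9 had no count, 39 were under the filter on low counts and 46 were tested. In snl12345, 10 of the 46 were higher (21.7%) and 6 lower (13.0%), beside 18.3% and 16.5% of all tested loci (edgeR quasi-likelihood test, adjusted p below 0.05). Their median log2 fold change was 0.06, and that of all tested loci 0.00. The shares next to switched-on loci were therefore close to the background. Without Col-0 replicate 1, 6 of 47 were higher, beside 11.6% of all tested loci, and without snl12345 replicate 3, 15 were higher and 10 lower, beside 19.1% and 17.6%. AT4G01390, a TRAF-like gene next to the plastocyanin-like gene AT4G01380, had 196, 239 and 92 reads in snl12345, against 30, 35 and 25 reads in Col-0, 5.96-fold higher (adjusted p = 0.00089, edgeR). An antisense locus, MPK4 (AT4G01370), overlaps AT4G01390. AT1G73620, a thaumatin family gene, was 2.5-fold higher, and AT3G15300, for a VQ motif protein and next to the element AT3G15310, 1.8-fold higher (adjusted p = 0.00232 and 0.00427, edgeR). MEE34 next to WOX5, LETM1 and AT1G61850 were 1.3- to 1.51-fold higher. Among lower neighbours, the defensin-like gene AT1G13609 had 5, 18 and 16 reads in snl12345, against 92, 45 and 119 reads in Col-0, 6.43-fold lower beside the switched-on hydrolase gene AT1G13610 (adjusted p = 0.00411, edgeR). AT2G35075 was 4.58-fold lower beside AT2G35070 (adjusted p = 0.00141, edgeR). AT3G21650, a phosphatase regulatory subunit gene, was 1.4-fold lower (adjusted p = 0.00587, edgeR). ZAR1, a resistance gene overlapped by antisense loci (adjusted p = 0.0491, edgeR), and SNRNP-G (adjusted p = 0.0169, edgeR) also passed. ZAR1 lost its call without snl12345 replicate 1 or 2 or Col-0 replicate 1 or 3 (0.0921, 0.163, 0.0933 and 0.12, range over 12 alternatives 0.0136 to 0.163), and SNRNP-G without snl12345 replicate 2 or Col-0 replicate 1 or 2 (0.063, 0.0581 and 0.0621, range 0.0157 to 0.063).

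Next to switched-off loci the calls leaned to one side. Of 107 adjacent loci, 15 had no count, 38 were under the filter and 54 were tested, and in snl12345 4 were higher (7.41%) and 19 lower (35.2%), beside the same 18.3% and 16.5%. Their median log2 fold change was -0.33. Without the loci that overlap a switched-off locus, 3 of 46 were higher and 15 lower (32.6%). Without snl12345 replicate 2, 11 of 54 were lower, beside 9.59% of all tested, and without Col-0 replicate 1, 12 were lower, beside 8.88%; 2 were higher in each case.

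By adjusted p, neighbours with few reads in snl12345 came first. The pseudogene AT1G33817, beside AT1G33813, had 8, 11 and 6 reads in snl12345, against 42, 47 and 48 reads in Col-0, 5.29-fold lower (adjusted p = 0.000513, edgeR). The lectin receptor kinase gene AT2G43700, beside its relative AT2G43690, had 4, 7 and 11 reads in snl12345, against 41, 40 and 64 reads in Col-0, 6.36-fold lower (adjusted p = 0.00199, edgeR). Both neighbours of the pseudogene AT5G34795 were lower. AT5G34790 had 10, 20 and 12 reads in snl12345, against 45, 37 and 39 reads in Col-0, 2.8-fold lower (adjusted p = 0.00287, edgeR), and AT5G34800, picked with its values in view, had 1, 13 and 4 reads in snl12345, against 26, 22 and 20 reads in Col-0 (adjusted p = 0.0205, edgeR). Next to UGT74E2, AT1G05675, another glycosyltransferase gene picked with its values in view, had 7, 5 and 9 reads in snl12345, against 227, 13 and 600 reads in Col-0 (adjusted p = 0.0161, edgeR), so its Col-0 libraries spread widely. AT1G64270, AT1G49032, which overlaps AT1G49030, and ALATS, an alanyl-tRNA synthetase gene, were 1.72-, 1.49- and 1.32-fold lower (adjusted p = 0.00295, 0.00362 and 0.00381, edgeR). An antisense locus, AT1G64280, overlaps AT1G64270.

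A few neighbours moved against the switched-off locus. AATP1, an AAA-type ATPase gene, had 37, 48 and 25 reads in snl12345, against 3, 9 and 5 reads in Col-0, 6.5-fold higher (adjusted p = 0.00144, edgeR), while AT5G40000 beside it, annotated as a P-loop hydrolase gene, had 2, 2 and 4 reads in snl12345, against 18, 10 and 25 reads in Col-0. MSR2, which overlaps AT1G51620 on the other strand, was 1.38-fold higher (adjusted p = 0.0039, edgeR). AT1G51610, on the other side of AT1G51620, was 1.37-fold higher (adjusted p = 0.0213, edgeR) and lost its call without snl12345 replicate 2 or Col-0 replicate 1 or 2 (0.0794, 0.0869 and 0.0512, range 0.00425 to 0.0869). AT2G34970, beside CAT5, was 1.26-fold higher (adjusted p = 0.0312, edgeR) and lost its call in 5 of 12 alternatives (range 0.0209 to 0.118).

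**Figure D4:**
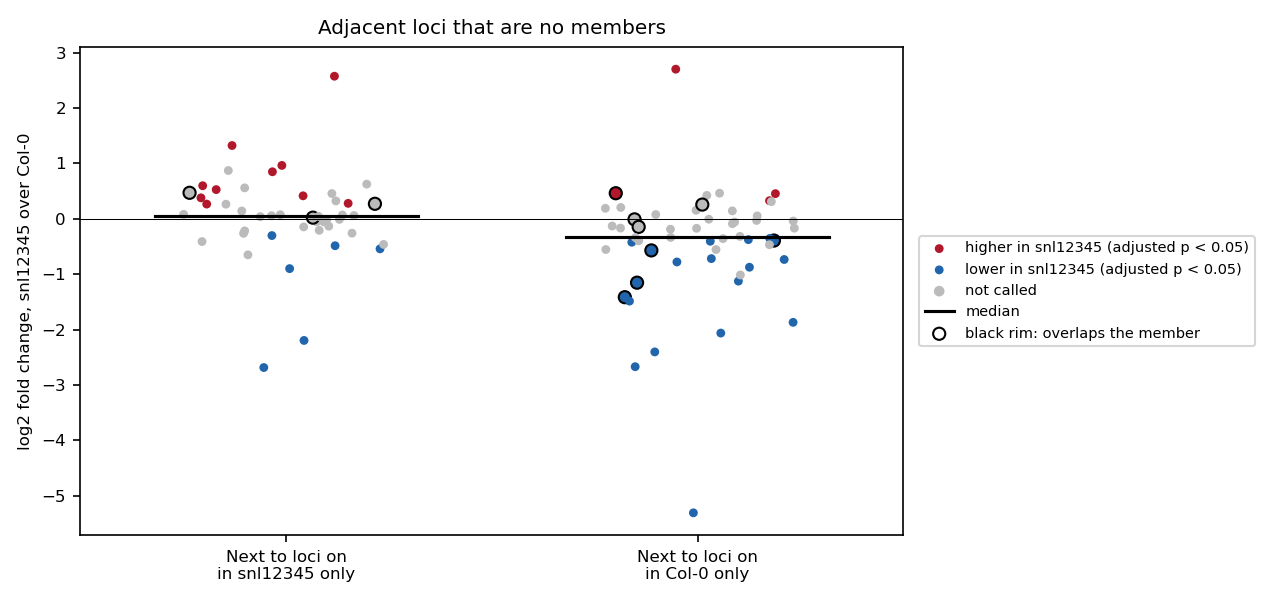
Log2 fold change (snl12345 over Col-0) of tested loci adjacent to switched-on loci (left, 46 loci) and to switched-off loci (right, 54 loci), spread sideways at random. Colour gives the edgeR call, a black rim an overlap with the near-silent locus and the bar the median, 0.06 on the left and -0.33 on the right; 19 of 54 on the right are lower and 6 of 46 on the left.

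Most genes of the silencing machinery were not called, as was true of all tested loci. All 27 listed genes for DNA methylation, small RNA pathways, heterochromatin and demethylation were tested. In snl12345, 1 was higher (3.7%), 6 were lower (22.2%) and 20 were not called. Of all tested loci, 18.3% were higher and 16.5% lower. The median log2 fold change of the 27 genes was -0.04. MET1, the maintenance DNA methyltransferase, had 34.1 ± 4.03 CPM in snl12345 and 31.7 ± 1.63 CPM in Col-0 (n = 3 each, adjusted p = 0.384, edgeR). DDM1, a chromatin remodeller needed for transposon silencing, had 8.68 ± 1.25 CPM in snl12345 and 8.93 ± 0.722 CPM in Col-0 (adjusted p = 0.819, edgeR). The histone deacetylase HDA6 had 22.6 ± 1.68 CPM in snl12345 and 20.6 ± 1.53 CPM in Col-0 (adjusted p = 0.288, edgeR). Calls were of small size. VIM1, the relative of VIM2, had 17.9 ± 1.31 CPM in snl12345 and 25.9 ± 2.19 CPM in Col-0, 1.45-fold lower (adjusted p = 0.00424, edgeR). DCL3, the Dicer of the small RNA pathway, had 8.32 ± 0.868 CPM in snl12345 and 13.9 ± 2.08 CPM in Col-0, 1.68-fold lower (adjusted p = 0.00408, edgeR), with an antisense locus, AT3G43930, overlapping it. MOM1 and MORC1, which act in silencing beside DNA methylation, were 1.3- and 1.34-fold lower (adjusted p = 0.00552 and 0.00684, edgeR). ATXR5, a histone H3 methyltransferase gene, was 1.52-fold lower (adjusted p = 0.0138, edgeR) and not called without Col-0 replicate 1 (0.0602, range 0.0114 to 0.0602). DRM2, the methyltransferase of the small RNA pathway, was 1.24-fold lower (adjusted p = 0.0441, edgeR) but lost its call in 8 of 12 alternatives (range 0.0156 to 0.146). Without snl12345 replicate 3 or Col-0 replicate 3, 2 genes of the list were higher. DMS3, which also acts with small RNAs and is overlapped by AT3G49240, was 1.4-fold higher (adjusted p = 0.0164, edgeR) and not called without snl12345 replicate 2 (0.0544, range 0.016 to 0.0544).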

How the data were processed

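RNA sequencing libraries were compared between snl12345 and Col-0 seedlings, grouped by the sample titles. The labels' protocols give a directional kit with 1 µg of RNA as input. The submitters' processing notes name TAIR10 as the genome and, as tools, HTSeq, TopHat, edgeR and cutadapt 1.4. The step each was used for and the strand setting of counting are not stated there, so reads of a locus and its antisense partner may not be separated.

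The authors deposited raw read counts per locus for each library, and the tests used these. Their deposited tables of higher and lower loci also give a log2 fold change, a p-value, an adjusted p and a gene type. The listing and the gene type were used. The implied number of tested loci, 18982, is the adjusted p divided by the p-value at the smallest p-value among lower loci. It was taken for both directions. Another 24 per-sample columns were not used. The 104 loci and all lists were chosen with earlier results of these data known.

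Loci were tested with edgeR 4.0.16 in R 4.3.3 (filterByExpr with minimum count 10 and minimum total 15, TMM scaling, glmQLFit and glmQLFTest, Benjamini-Hochberg adjustment, threshold 0.05). The code was first run on simulated counts with the same dispersion for all loci. That run does not show how the test does at loci with few reads. CPM used library totals. Classes, symbols, exon length and gene order came from RefSeq TAIR10.1, which matched 32835 loci; coordinates are not printed because the build names differ. Copies were searched with BLAST 2.17.0 (95% identity over 100 bp of exon). Named loci were, in each direction, the 15 with the highest minimum count, those with a symbol, adjacent pairs and those at the limits, and up to 6 called neighbours and silencing genes by adjusted p. Near-silent loci outside this rule, and neighbours so marked, were named with their values in view. Intervals describe counting error alone, as PCR copies were not removed by molecular identifiers. Alternatives varied the rule, scaling, filter, tool (DESeq2 1.42.0), replicate block and each library left out.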

Additional observations from a re-analysis of the deposited data

How the results depend on the processing

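The sizes of the sets follow their limits. With a near-silent sum of 5 or less there were 10 switched-on and 4 switched-off loci, with 30 or less 225 and 249. With 20 reads or more in every expressing library there were 13 and 12, with 5 or more 234 and 249. Scaling counts to the smallest library total gave 53 switched-on loci (42 of them shared) and 46 switched-off loci (40 shared), and DESeq2 size factors gave 46 and 43, all shared. With each library left out in turn, and a limit of 10 where 2 near-silent libraries remained, switched-on loci numbered 53 to 84 (the highest without snl12345 replicate 3) and switched-off loci 60 to 83 (the highest without Col-0 replicate 2). Leaving out an expressing library can only add loci, so all 49 or 55 were then kept. Leaving out a near-silent library kept 44 to 48 of the 49 switched-on and 44 to 51 of the 55 switched-off loci.

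Leaving out each library gave 2290 to 3806 higher and 1757 to 3511 lower of all tested loci, with the lowest counts without Col-0 replicate 1. Next to switched-on loci it gave 6 to 15 higher and 4 to 10 lower, and next to switched-off loci 2 to 5 higher and 11 to 19 lower. Of the silencing genes 1 to 2 were higher and 4 to 8 lower. Taking the nearest counted locus as neighbour, an alternative added after the data were seen as was leaving out overlapping loci, gave 21 of 65 lower next to switched-off loci. Of 408 recomputed values of named tested loci, 383 kept their call, 25 lost it and none reversed. Of 432 recomputed ratios of near-silent loci, 428 stayed within the spread between libraries and 4 moved beyond it. At so few reads that spread is wide, so staying within it does not show that a ratio is stable. The ratio of AT4G08093 went from 49.2 to 159 without Col-0 replicate 1, and that of FAMT from 8.57 to 50.5 without Col-0 replicate 2. The rule itself fixes the direction of these ratios, so their lack of reversals carries no weight.

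Replicate numbers showed no clear pairing of the samples. Deviations of same-numbered libraries correlated at 0.01, 0.15 and -0.06, and those of different-numbered libraries at -0.13 to 0.13. With 3 libraries per genotype, these values cannot settle whether the numbers pair the samples. With a replicate block, 3106 loci were higher and 2768 lower, 9 and 6 next to switched-on loci, 5 and 18 next to switched-off loci, and 1 and 5 of the silencing genes. The silent side held 15 reads or fewer over 3 libraries, so ratios of loci with 1 to 3 such reads are poorly fixed.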

Other observations

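Of the 55 switched-off loci, the lowest Col-0 CPM fell on replicate 2 in 20, on replicate 1 in 19 and on replicate 3 in 16, so no Col-0 library was low throughout. In a few loci, picked with their values in view, replicate 2 was well below the others. AT4G37290, of unknown function, had 2, 2 and 5 reads in snl12345, against 38, 13 and 36 reads in Col-0. AT5G40000, annotated as a P-loop hydrolase gene, had 2, 2 and 4 reads in snl12345, against 18, 10 and 25 reads in Col-0. In both, Col-0 replicate 2 lay nearest to the mutant, as it did for AT2G32200 (4, 3 and 6 reads in snl12345, against 47, 22 and 65 reads in Col-0). The neighbour of AT2G32200, AT2G32210, which encodes a protein of the same cysteine-rich transmembrane type, had 13, 21 and 17 reads in snl12345, against 60, 24 and 131 reads in Col-0. The order of the Col-0 libraries was the same in AT1G05675, the glycosyltransferase gene beside UGT74E2, with 7, 5 and 9 reads in snl12345, against 227, 13 and 600 reads in Col-0. UGT74E2 itself did not show it, with 2, 5 and 4 reads in snl12345, against 16, 16 and 13 reads in Col-0. The total of Col-0 replicate 2, 14879617 reads, lies between those of the other two.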
